A study of Mus musculus with 26 samples.

Results

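Translation initiation factor genes are taken here as every mouse protein-coding gene in RefSeq (GRCm38.p6, equal in its coordinates to mm10) whose symbol is Eif followed by a digit. The rule found 56 genes among the protein-coding genes. Of these, 55 lay on the chromosomes that carry domain boundaries, which hold 21521 protein-coding genes in all. The remaining gene, Eif2s3y, lies on chromosome Y, for which the boundary list holds no interval, and it was not analysed here. The rule also takes in genes that are not initiation factors themselves, such as the Eif2ak kinases and the Eif4ebp binding proteins.

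The boundaries come from Micro-C, which maps contacts between nucleosomes after digestion with micrococcal nuclease, in mouse embryonic stem cells (ESCs) in the G1 phase. These are C57BL/6J cells of a Bruce-4 derived line grown in serum/2i/LIF, and they carry the RAD21-dTAG allele, which fuses a degradation tag to RAD21, a subunit of cohesin. They received 0.05% v/v DMSO as the vehicle, so RAD21 was tagged but not targeted for degradation. The 6 DMSO libraries of 26 in the series were pooled by the authors into the only boundary list used here, and the dTAG and A485 libraries and the epiblast-like cells were not analysed here. The list has 3515 intervals of 25 kb and neither scores nor replicate values, so no value below has a replicate error, the contact depth behind it is unknown, and no test was made. A boundary list holds no expression, so the ESC label could not be set against marker genes.

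Initiation of translation brings a small ribosomal subunit, the initiator tRNA and an mRNA together at a start codon. The factor eIF2 delivers the initiator tRNA as a GTP-bound complex, eIF2B reloads eIF2 with GTP, and the stress kinases of the Eif2ak family block that exchange by phosphorylating the alpha subunit of eIF2. The large eIF3 complex binds the small subunit, the eIF4 factors recognise and unwind the capped end of the mRNA, eIF1 and eIF1A guide start-site choice, and eIF5 and eIF5B lead to subunit joining. Domain boundaries are positions across which contacts are depleted, and in mammals many form where CTCF halts cohesin.

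Initiation factor genes lay near domain boundaries at a share close to that of protein-coding genes as a whole. A gene was counted as near when either of its ends lay inside a boundary interval or within 10 kb of it. By that count 12 of 55 genes were near, 21.8% (95% exact binomial interval 11.8 to 35.0), beside 18.3% of all protein-coding genes, a share inside that interval. The 12 are Eif1, Eif1a, Eif2s1, Eif2s3x, Eif3d, Eif3e, Eif3j1, Eif4b, Eif4ebp2, Eif4h, Eif5a2 and Eif6. For 11 of them an end lay inside the interval itself, 20.0% of members (10.4 to 33.0) beside 11.7% of all protein-coding genes. The binomial intervals cover counting error only, and genes are not independent replicates.

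Other ways of placing a gene gave counts of 2 to 12 genes, each at a share above the background beside it. The gene midpoint lay within 10 kb for 11 of 55 members (20.0%, beside 11.2% of all protein-coding genes) and inside an interval for 7 (12.7%, beside 6.52%). The gene body overlapped an interval for 11 (20.0%, beside 15.1%) and the interval or its window for 12 (21.8%, beside 20.3%). No member ran through an interval without an end in it. That count says little, since 15.1% of all protein-coding genes overlapped an interval and 11.7% had an end inside one. An end lay in the middle 5 kb of an interval for 2 (3.64%, beside 2.8%). Among genes of 10 kb or more 10 of 37 members were near (27.0%, beside 21.8%), and on chromosomes 1 to 19 it was 11 of 53 (20.8%, beside 18.5%). Of 43 members whose strand is known, 9 were near (20.9%, beside 18.1%).

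The distances left a gap just outside the window. Eif3d, at 9.0 kb, is the only near gene whose ends both lay outside an interval. The next genes out were Eif3g at 19.3 kb, Eif2a at 25.8 kb and Eif1ad at 28.5 kb. Only 1 gene lay between 10 and 25 kb and 10 lay between 25 and 50 kb, so the share near a boundary passed from above to below that of all protein-coding genes and back as the window grew. It was 23.6% beside 25.9% at 25 kb, 41.8% beside 35.6% at 50 kb, and at 100 kb it was 33 of 55 genes beside 50.3%. The median distance was 67.9 kb for initiation factor genes (quartiles 27.2 and 229 kb) and 98.9 kb for all protein-coding genes (22.8 and 229 kb). Farthest out, beyond 500 kb, were Eif5 at 553 kb, Eif1b at 568 kb and Eif4enif1 at 705 kb, 5.45% of members beside 7.29% of all protein-coding genes.

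**Figure D1:**
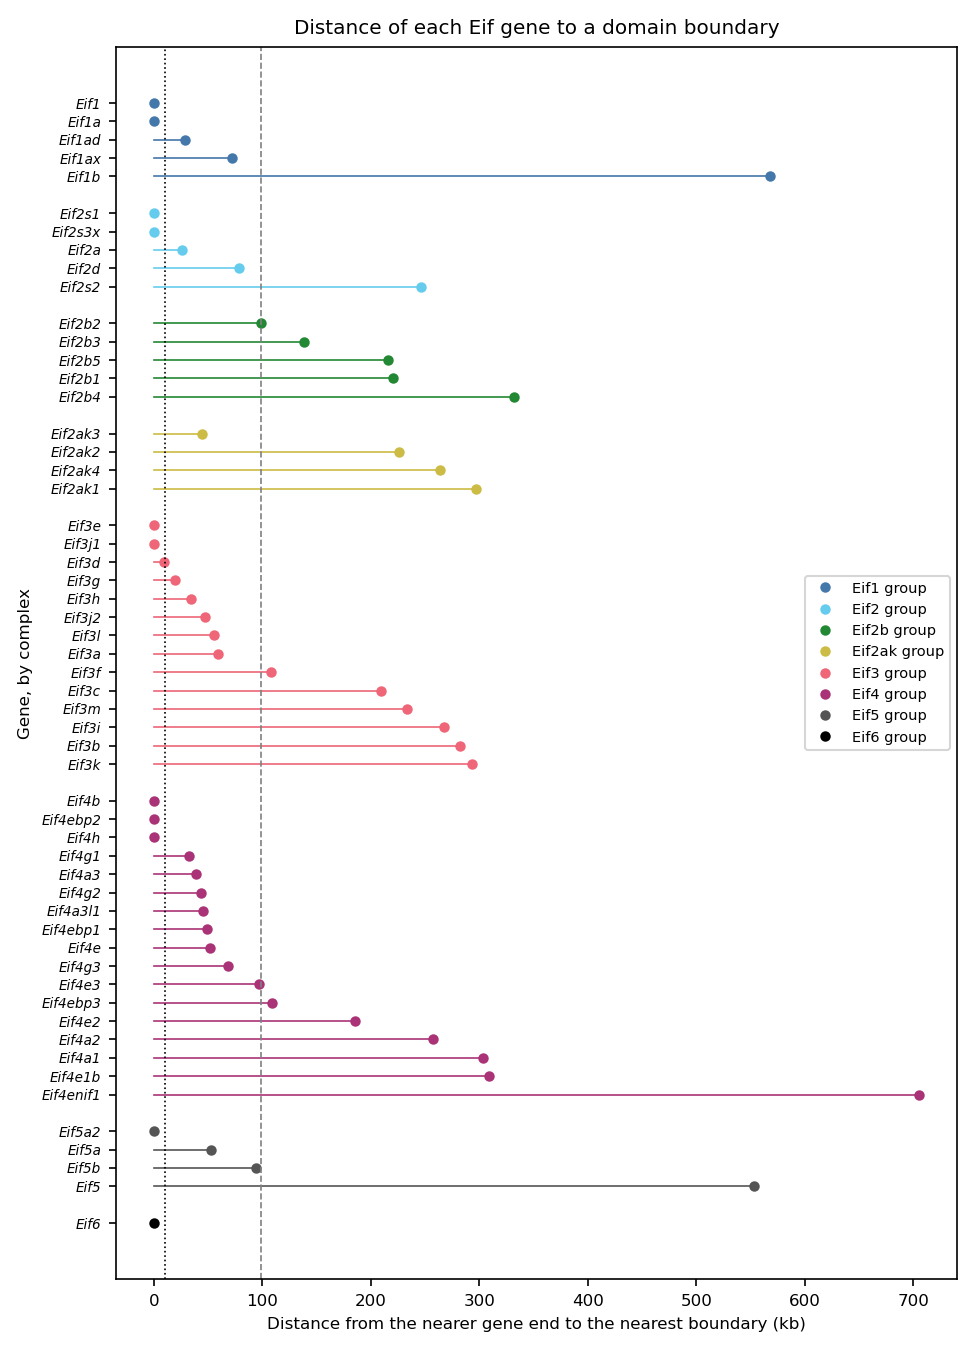
Distance in kb from the nearer end of each of the 55 Eif genes to the nearest boundary interval, by complex (1 point per gene, 0 for an end inside an interval). The dotted line marks 10 kb and the dashed line the median of all protein-coding genes, 98.9 kb. Every Eif2b gene and every Eif2ak gene lies right of the dotted line.

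The genes of the eIF1 group, which includes those for the start codon selection factors eIF1 and eIF1A, ranged from the inside of a boundary to 568 kb away. Eif1, the factor that keeps the ribosome scanning until a start codon is met, lies whole inside the boundary at chr11:100300001-100325000. Eif1a, which encodes eIF1A, has its low-coordinate end inside the boundary at chr18:46575001-46600000. Its X-linked paralog Eif1ax lay 72.2 kb from a boundary. Eif1b, a close paralog of Eif1, lay 568 kb from a boundary in a domain of 1300 kb on chromosome 9. Eif1ad, named for its eIF1A-like domain, lay 28.5 kb away.

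Of the subunit genes of eIF2, those for alpha and gamma lay at a boundary and that for beta did not. Eif2s1, which encodes the alpha subunit that the stress kinases phosphorylate, had its start site inside the boundary at chr12:78850001-78875000. Eif2s3x, which encodes the GTP-binding gamma subunit, had its start site inside the boundary at chrX:94200001-94225000. Eif2s2, for the beta subunit, lay 246 kb from a boundary. Eif2a and Eif2d encode single-chain factors that can bring initiator tRNA to the ribosome apart from eIF2, and they lay 25.8 and 78.2 kb away.

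None of the genes for the eIF2B subunits and the Eif2ak kinases was near a boundary. The 5 subunit genes of the exchange factor eIF2B lay 98.4 kb (Eif2b2), 138 kb (Eif2b3), 216 kb (Eif2b5), 220 kb (Eif2b1) and 332 kb (Eif2b4) away. All 5 thus stayed outside a window of 50 kb, which took in 35.6% of all protein-coding genes. The kinase genes lay 44.5 kb (Eif2ak3, or PERK, activated by stress of the endoplasmic reticulum), 226 kb (Eif2ak2, or PKR, by double-stranded RNA), 264 kb (Eif2ak4, or GCN2, by lack of amino acids) and 297 kb (Eif2ak1, or HRI, by lack of haem) away. With 5 and 4 genes, counts of 0 within 10 kb say little beside a background of 18.3%. The same holds for 0 of 5 within 50 kb beside 35.6%.

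The 14 genes of eIF3, the scaffold of the initiation complex, included 3 near a boundary, a count that says little beside 18.3% of all protein-coding genes. Eif3e, a subunit of the eIF3 core, had its high-coordinate end inside the boundary at chr15:43275001-43300000. Eif3j1, for a loosely bound subunit, had its start site inside the boundary at chr2:122025001-122050000, and its paralog Eif3j2 lay 47.2 kb from a boundary on chromosome 18. Eif3d, for a peripheral subunit that can itself bind the mRNA cap, ended 9.0 kb from the boundary at chr15:77925001-77950000. The other core subunit genes lay 34.5 kb (Eif3h), 55.6 kb (Eif3l), 59.3 kb (Eif3a), 108 kb (Eif3f), 209 kb (Eif3c), 233 kb (Eif3m) and 293 kb (Eif3k) away. Eif3b, Eif3g and Eif3i, whose products form a separate module of the complex, lay 282, 19.3 and 267 kb away. The genes of this complex thus ranged from the inside of a boundary to the deep interior of a domain.

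The 17 genes of the Eif4 group also included 3 near a boundary, a count that says little beside 18.3% of all protein-coding genes. The genes for the subunits of the cap-binding complex eIF4F were not among them, but these genes are few. Eif4e, the cap-binding protein, lay 51.2 kb from a boundary. The scaffold genes Eif4g1, Eif4g2 and Eif4g3 lay 32.1, 43.0 and 67.9 kb away. The helicase genes Eif4a1 and Eif4a2 lay 303 and 257 kb away, and Eif4a3, whose product works in the exon junction complex, lay 38.4 kb away with its homolog Eif4a3l1 at 45.0 kb. The near genes were Eif4b, Eif4h and Eif4ebp2. Eif4b and Eif4h encode proteins that stimulate the helicase, and they ended inside the boundaries at chr15:102075001-102100000 and chr5:134600001-134625000. Eif4ebp2, for a repressor that holds eIF4E until mTOR phosphorylates it, had its start site inside the boundary at chr10:61450001-61475000, while Eif4ebp1 and Eif4ebp3 lay 49.3 and 109 kb away. The further cap-binding genes Eif4e2, Eif4e3 and Eif4e1b lay 185, 96.9 and 309 kb away, and Eif4enif1, for a transporter of eIF4E, lay before the first boundary of chromosome 11, at 705 kb.

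The genes of the Eif5 group and Eif6 were again mixed. Eif5a2 lies whole inside the boundary at chr3:28775001-28800000, whereas its paralog Eif5a lay 53.0 kb from a boundary. The products of both carry the modified residue hypusine. Eif5, for the activator of GTP hydrolysis by eIF2, lay 553 kb away, and Eif5b, for the GTPase of subunit joining, 94.4 kb. Eif6, whose product keeps the large ribosomal subunit from joining early, had an end inside the boundary at chr2:155800001-155825000. Some paralogs lay at unlike distances, Eif1 and Eif1b at 0 and 568 kb and Eif5a2 and Eif5a at 0 and 53.0 kb. The same held for Eif3j1 and Eif3j2 at 0 and 47.2 kb. Other pairs lay outside the 10 kb window: Eif4a3 and Eif4a3l1 at 38.4 and 45.0 kb, Eif4a1 and Eif4a2 at 303 and 257 kb. These pairs were picked out after their values were seen.

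**Figure D2:**
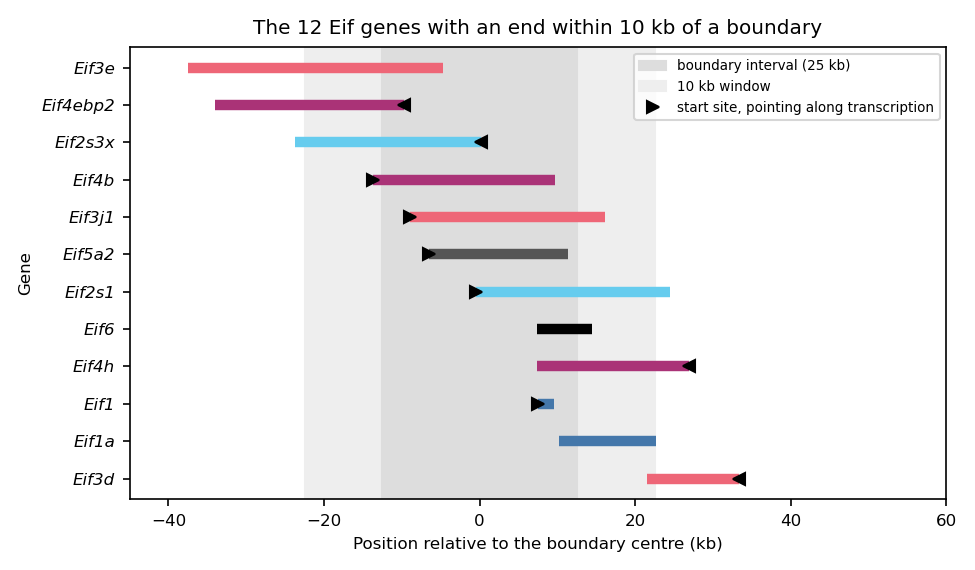
Gene bodies (bars) of the 12 near Eif genes by position in kb from the centre of their boundary, with arrowheads at the start sites of the 9 genes that have a strand in the tables. Eif1 and Eif5a2 lie whole inside the 25 kb interval (dark grey), and Eif3d ends in the 10 kb window (light grey) without reaching it.

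Each of the 12 near genes had a boundary of its own, spread over 9 chromosomes. Chromosome 15 held 3 of them (Eif3d, Eif3e and Eif4b) among 5 members. Without that chromosome 9 of 50 members were near, 18%, beside 18.2% of all protein-coding genes. The 11 boundaries that held a member's end contained 1 to 4 protein-coding gene ends each (median 2), the member's own included. The 1729 boundaries with any protein-coding gene end inside held a median of 1, so a lone gene is common there. In 6 of the 11, those of Eif1, Eif2s3x, Eif3e, Eif3j1, Eif4ebp2 and Eif5a2, no other protein-coding gene had an end. The others were shared with close neighbours. Atp6v1d, for a subunit of the vacuolar proton pump, starts 0.064 kb from Eif2s1, Lat2 lies 0.089 kb from Eif4h, and Tmed7 lies 0.169 kb from Eif1a. Tns2 lies 1.3 kb from Eif4b. BC029722 and Mmp24 had ends in the interval of Eif6, and Foxred2 and Txn2 in that of Eif3d.

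The domains that these boundaries separate differed widely in length. The boundary of Eif1 stood between domains of 275 and 1225 kb, that of Eif2s1 between 1575 and 425 kb, and that of Eif2s3x between 725 and 1725 kb. By contrast the boundary of Eif6 had domains of 325 kb on both sides, and that of Eif4ebp2 had 325 and 225 kb. Lengths are given from the low to the high coordinate.

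Start sites were near boundaries about as often as the other gene end. The RefSeq promoter table gives the strand of 43 of the 55 genes, and the start site was taken as the outermost annotated end of the gene on that strand. Of these, 7 start sites were within 10 kb of a boundary (16.3%, exact interval 6.81 to 30.7), beside 12.2% of all protein-coding genes with a strand. Inside an interval were 6, those of Eif1, Eif2s1, Eif2s3x, Eif3j1, Eif4ebp2 and Eif5a2 (14.0%, beside 7.05%), and the start site of Eif4b lay 1.23 kb away. Ends of transcription were within 10 kb for 6 of 43 (14.0%, beside 12.6%): Eif1, Eif3d, Eif3j1, Eif4b, Eif4h and Eif5a2. Eif1a, Eif3e and Eif6 are among the 12 genes with no strand in the table. An end of transcription lay inside an interval for 4 of 43 (9.3%, beside 7.2%). A start 1.23 kb outside an interval of 25 kb cannot be told from a start inside it.

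The sequences before the boundary start sites are shown because these are promoters placed inside boundary intervals by the data. They were read from RefSeq (GRCm38.p6) as up to 250 bases before the start in the promoter table. Any bases that lie in an annotated gene, the member's own included, were left out. The sequences are given 5′ to 3′ on the gene's own strand. For Eif5a2 no base was left by that rule. Capitals mark GGGCGG, a GC box, on either strand.
Eif1, chr11:100319699-100319948, plus strand: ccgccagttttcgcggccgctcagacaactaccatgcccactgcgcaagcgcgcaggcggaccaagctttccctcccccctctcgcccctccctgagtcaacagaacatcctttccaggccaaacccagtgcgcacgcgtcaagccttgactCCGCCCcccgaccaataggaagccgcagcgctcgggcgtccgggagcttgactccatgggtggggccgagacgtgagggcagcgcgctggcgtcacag
Eif2s1, chr12:78862009-78862071, plus strand: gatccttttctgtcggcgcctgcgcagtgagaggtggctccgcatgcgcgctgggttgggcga
Eif2s3x, chrX:94212652-94212901, minus strand: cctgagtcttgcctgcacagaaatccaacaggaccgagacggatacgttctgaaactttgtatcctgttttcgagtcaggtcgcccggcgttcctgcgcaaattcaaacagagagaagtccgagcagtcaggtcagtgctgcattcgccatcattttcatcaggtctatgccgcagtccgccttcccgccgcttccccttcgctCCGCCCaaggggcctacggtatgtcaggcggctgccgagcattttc
Eif3j1, chr2:122028330-122028579, plus strand: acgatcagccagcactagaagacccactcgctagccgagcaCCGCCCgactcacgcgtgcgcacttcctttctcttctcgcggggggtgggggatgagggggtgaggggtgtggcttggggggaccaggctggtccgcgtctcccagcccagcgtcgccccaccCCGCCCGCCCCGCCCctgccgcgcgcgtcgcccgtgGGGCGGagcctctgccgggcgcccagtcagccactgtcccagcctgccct
Eif4ebp2, chr10:61452791-61452919, minus strand: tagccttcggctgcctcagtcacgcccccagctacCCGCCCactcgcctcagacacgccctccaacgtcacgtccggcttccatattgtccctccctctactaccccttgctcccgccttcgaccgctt

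The 63 bases of Eif2s1, which hold no GC box, are the whole stretch between its start and that of Atp6v1d, transcribed the other way. The promoter of Eif3j1 held 5 GC boxes, some overlapping one another, and 73.6% G and C. Head-to-head pairs with starts within 1 kb were found for 5 of the 43 members with a strand (11.6%), beside 6.68% of all such protein-coding genes. Besides Eif2s1 these were Eif2b1 with Gtf2h3, Eif2b4 with Snx17, Eif3k with Map4k1 and Eif5b with Txndc9, none of which was near a boundary.

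Across the 43 promoters, the 250 bases before the start held more CpG at the median than those of protein-coding genes at large. They had a median of 19 CpG and 59.2% G and C, beside 10 CpG and 55.6% in 17268 promoters. The 7 with a start within 10 kb of a boundary had a median of 26 CpG (range 12 to 28). GGGCGG was present on either strand in 30 of 43 (69.8%, beside 43.2% of all promoters). These counts use the full 250 bases before the start in the promoter table, unlike the sequences printed above. For some members, such as Eif4ebp2 and Eif5a2, that start lies inside the outermost annotated end. The bases counted can therefore lie in the member's own gene or in another annotated gene. On that basis GGGCGG was present in 7 of the 7 near ones, where that of Eif2s1 lies within Atp6v1d and those of Eif5a2 lie within annotated genes. CCGGAAG, the core bound by ETS factors, was present in 10 (23.3%, beside 9.27%). CACGTG, an E-box that Myc can bind, was present in 7 (16.3%, beside 6.74%): Eif1b, Eif3f, Eif3k, Eif4a1, Eif4g1, Eif4h and Eif5a2. TATAAA was present in 3 (6.98%, beside 12.5%). AAGATGGCG, a core of the YY1 motif, was in 0 of 43, beside 0.678%. A rough upper limit for that count of 0, taken as 3 of 43, is 6.98%, which is not an exact interval. Base composition differed along with these shares, and its part in them was not tested. A match describes letters and is not a binding site.

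A core of the CTCF motif was searched because CTCF marks many boundaries. It was present on either strand in 1 of 43 promoters (2.33%), beside 2.02% of all promoters. That promoter belongs to Eif4h, which ends inside a boundary and starts 14.4 kb from it, and so lies outside the interval. In its sequence the first capitals mark GGGCGG, the second CACGTG and the third the CTCF core.
Eif4h, chr5:134639410-134639659, minus strand: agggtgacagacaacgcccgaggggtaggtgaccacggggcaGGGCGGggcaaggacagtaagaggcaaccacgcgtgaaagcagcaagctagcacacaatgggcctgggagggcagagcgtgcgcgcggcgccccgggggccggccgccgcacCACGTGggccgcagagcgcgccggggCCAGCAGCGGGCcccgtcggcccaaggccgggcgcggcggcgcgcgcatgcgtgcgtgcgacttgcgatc

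Domains were assigned by gene midpoints, so genes with an end at a boundary can belong to one. The midpoints of 47 members lay in 45 domains, those of 7 lay inside a boundary interval, and that of Eif4enif1 lay before the first boundary of its chromosome. The domain of a member had a median length of 700 kb (quartiles 550 and 975 kb), beside 675 kb (425 and 1050 kb) for the domains of all protein-coding genes counted by gene, and held a median of 14 protein-coding genes beside 12. With each domain counted once the medians were 700 and 500 kb. A domain with more genes is more likely to hold a member, so the count by gene is the closer comparison. Eif2d, in 200 kb, and Eif2b2, in 250 kb, had the shortest domains, and Eif3i, in 1425 kb, and Eif1b, in 1300 kb, the longest.

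**Figure D3:**
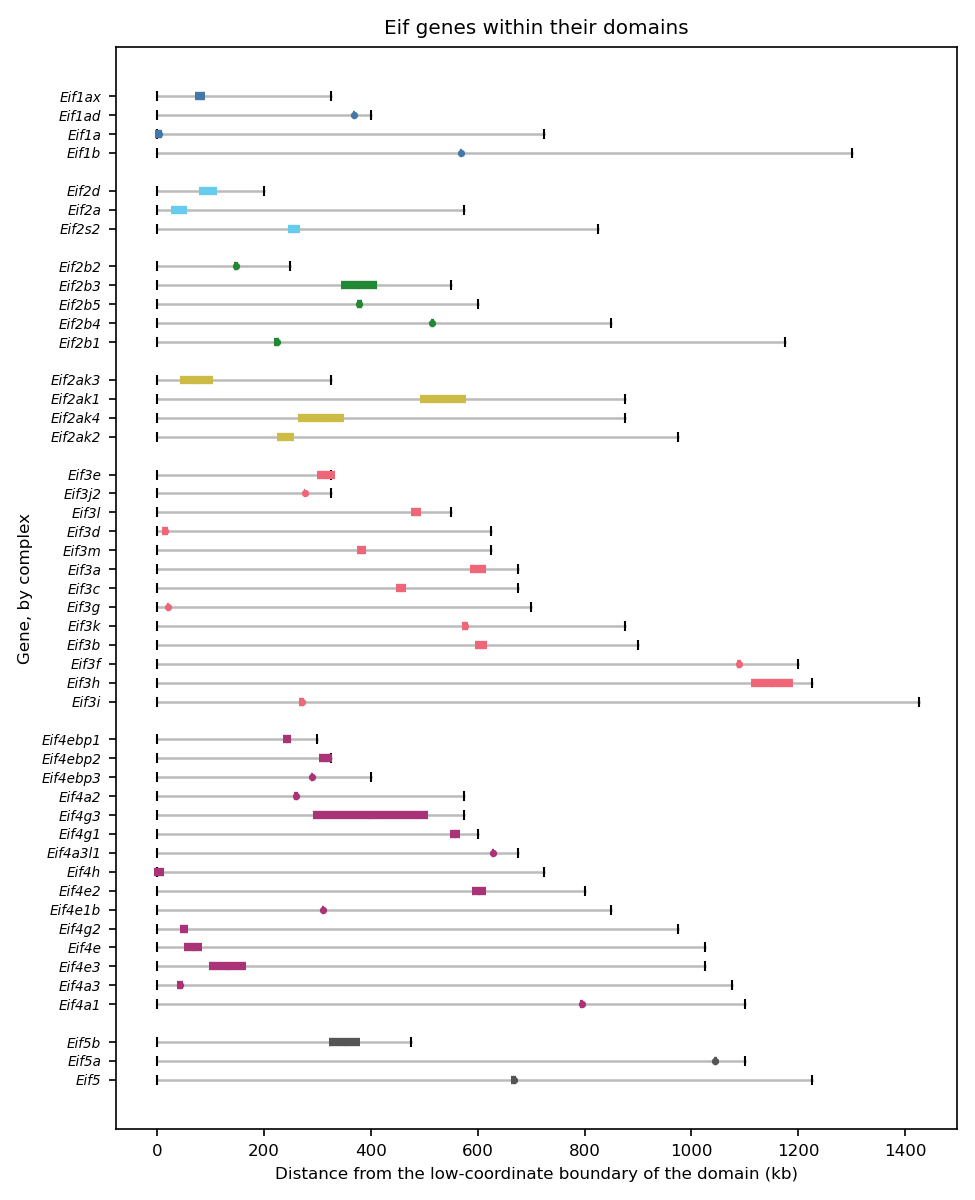
The 47 Eif genes whose midpoint lies in a domain, drawn in kb from the low-coordinate boundary of that domain (grey line, ticks at its ends, coloured bar and point for the gene), by complex and by domain length. Domains run from 200 kb for Eif2d to 1425 kb for Eif3i, and Eif4a1 and Eif5a lie at 2 places of one domain of 1100 kb.

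Only 2 domains held more than 1 member. Eif4a1 and Eif5a shared a domain of 1100 kb on chromosome 11, from 68875001 to 69975000, with 66 protein-coding genes in all. Eif2b5 and Eif4g1, 163 kb apart, shared a domain of 600 kb on chromosome 16 with 20 protein-coding genes. No other neighbouring members lay within 500 kb of each other.

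Members near a boundary were mostly of middle length. All protein-coding genes were divided into 3 classes of nearly equal size by length. Of the 24 members between 9.03 and 31.7 kb, 9 were near (37.5%, exact interval 18.8 to 59.4). Beside them stood 20.4% of all genes of that class, a share inside that interval. Among shorter genes 2 of 18 members were near, beside 11.7%, and among longer ones 1 of 13, beside 22.8%. By the number of protein-coding neighbours within 500 kb, 3 of 15 members with at most 10 neighbours were near, beside 24.9%, 6 of 24 in the middle class, beside 17.7%, and 3 of 16 with more than 22, beside 11.9%. Members had a median of 16 such neighbours and a length of 17.8 kb, beside 15 neighbours and 17.4 kb for all protein-coding genes.

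Many members host small RNA genes. Inside the bodies of 10 members (18.2%, beside 4.71% of all protein-coding genes) the annotation places 13 snoRNA and 4 miRNA genes, including Snord2 and Snora81 in Eif4a2, Snora28 in Eif5 and Snord66 in Eif4g1. Of these 10 hosts 0 were near a boundary, a count that says little beside 18.3% of all protein-coding genes, and their distances ran from 32.1 kb for Eif4g1 to 553 kb for Eif5.

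Other gene lists were set beside the same background, 18.3% of all protein-coding genes within 10 kb and 11.7% inside an interval. Of 77 cytoplasmic ribosomal protein genes 26 were near (33.8%, exact interval 23.4 to 45.4), and of 39 genes for the proteasome, which degrades proteins, 13 were near (33.3%, 19.1 to 50.2). Both of these intervals lie above 18.3% and that of initiation factor genes, 11.8 to 35.0, includes it, but all 3 intervals overlap one another. They cover counting error only, and the lists were chosen with earlier results of these data known, so they are no test. At 25 kb the shares were 23.6% for initiation factor genes (13.2 to 37.0), 46.8% for ribosomal protein genes and 41.0% for proteasome genes, beside 25.9% of all protein-coding genes. Inside an interval they were 20.0%, 20.8% and 23.1% in the same order, beside 11.7%. Cytoplasmic aminoacyl-tRNA synthetase genes, with 2 of their scaffold genes, were near in 7 of 22 cases (31.8%, 13.9 to 54.9), including Aimp1, Farsb, Hars and Nars, and 54.5% of them lay within 25 kb (32.2 to 75.6). Elongation and termination factor genes were near in 3 of 16 cases (18.8%), Eef1d, Etf1 and Hbs1l. That list also takes in genes for ribosome rescue, Hbs1l among them, for recycling and for enzymes that modify the factors. Regulators of initiation without an Eif symbol were near in 6 of 30 (20.0%), so both lists lay close to the 18.3% of all protein-coding genes. Among these regulators are Atf4, the transcription factor whose translation rises when eIF2 is phosphorylated, Impact, an inhibitor of the kinase GCN2, and Paip2b, which binds the poly(A)-binding protein. Differences between the lists were not tested.

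**Figure D4:**
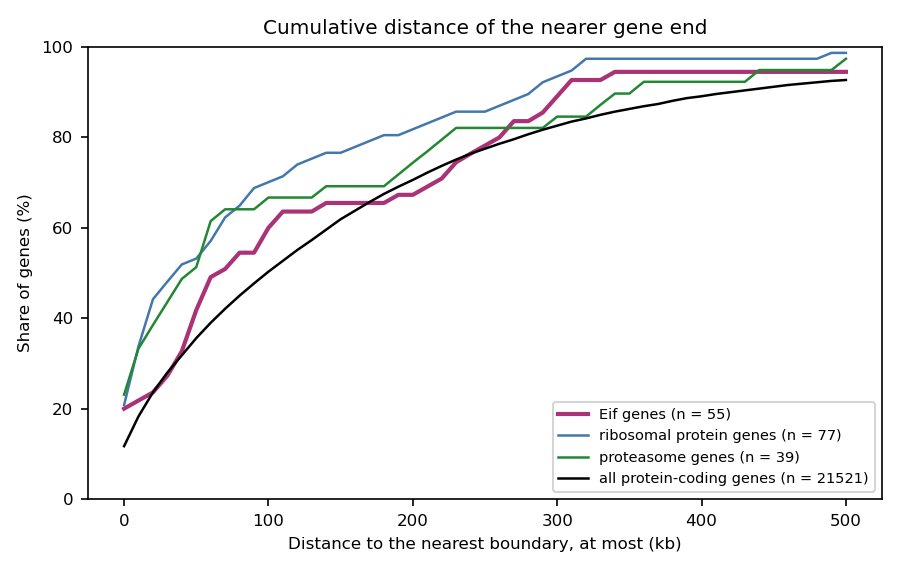
Share of genes (%) whose nearer end lies within a given distance (kb) of a boundary, for Eif genes, ribosomal protein genes, proteasome subunit genes and all protein-coding genes. The Eif line starts at 20.0%, near the 20.8% of ribosomal protein genes. It meets the line of all protein-coding genes at 20 kb (23.6% for both). It lies below that line at 30 kb (27.3% and 28.0%) and above it at 40 kb (32.7% and 31.8%).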

How the data were processed

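Micro-C libraries of G1 mouse cells were made by the authors. The tools they list, per the submitters' processing notes, are BWA 0.7.17 and Juicer 1.22.01, with the build mm10. The authors deposited boundary intervals as chromosome, start and end, with no score, for the 6 DMSO-treated ESC libraries pooled, per the labels. The boundary caller was not given in the sources used here. No other unit was used.

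Positions are counted from 1. RefSeq genes listed after a chromosome's sorted genes carry scaffold positions, and 363, of which 113 are protein-coding, were left out. Strand came from the RefSeq promoter table. Domains are the stretches between neighbouring boundaries, and a gene belongs to the domain of its midpoint. All members could be named. Neighbours in a near member's interval were named up to 3 per gene, and other lists gave at most 4 near genes in alphabetical order. The members and lists were chosen with earlier results of these data known. Ribosomal and proteasome genes were chosen by symbol pattern. The distance computation was tested on simulated data. Other windows, gene midpoints, start sites, body overlap, subsets of genes and the middle of the interval were tried as alternatives. The software was Python 3.11.15 with pandas 2.3.3, numpy 2.4.6, matplotlib 3.10.9 and scipy 1.17.1.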

Additional observations from a re-analysis of the deposited data

How the results depend on the processing

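The count of 12 near genes was 9 to 13 with no window, a window of 25 kb, gene midpoints, body overlap, chromosomes 1 to 19, genes of 10 kb or more, translation factors only, genes with a strand and chromosome 15 left out. It was 23 with a window of 50 kb, 7 with start sites only and 6 with ends of transcription only, the last 2 among 43 genes with a strand. Ends of transcription and genes with a strand were chosen after seeing the data. The share of members fell below that of all protein-coding genes at 25 kb (23.6% beside 25.9%) and without chromosome 15 (18% beside 18.2%). It was above it in the other settings just named that have a background. Among the classes of length and neighbours it was below for the fewest neighbours (20.0% beside 24.9%). The same held for the shortest genes (11.1% beside 11.7%) and the longest (7.69% beside 22.8%), and it was above in the other classes. The count of 11 genes with an end inside an interval was 2 for the middle 5 kb of the interval and 7 for gene midpoints. With a window of 50 kb the counts were 1 for Eif2ak, 6 for Eif3 and 8 for Eif4, and 41 for ribosomal protein, 20 for proteasome, 13 for synthetase and 11 for regulator genes. With no window 16 ribosomal protein genes were counted. The median distance was 80.9 kb for gene midpoints and 67.9 kb on chromosomes 1 to 19, and the median domain length was 700 kb with each domain counted once (500 kb for all domains that hold a protein-coding gene) and with domains up to 5 Mb (650 kb for all protein-coding genes). Counting members under 100 kb apart once could change nothing, since the closest lie 163 kb apart. No paired analysis was possible because the boundary list pools its 6 libraries and holds no replicate values, and no replicate could be left out for the same reason. The interval width of 25 kb limits every distance.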
